A study of Mus musculus with 6 samples.

Results

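The immunoglobulin cell adhesion genes of the L1, NCAM and CADM families were examined in RNA from mouse hippocampus. They were chosen by symbol as Chl1, L1cam, Nrcam and Nfasc of the L1 family, Ncam1 and Ncam2, and Cadm1 to Cadm4, which make 10 of the 52550 genes in the count table. All 10 symbols were found and all 10 genes passed the filter on low counts. The study injected adeno-associated virus into the CA1 areas of both hippocampi of male mice of the C57BL/6 J strain, which were 8 weeks old, and compared mice given L-DL shRNA (3 libraries) with mice given control shRNA (3 libraries). L-DL is the long isoform of hnRNP DL, an RNA-binding protein, and its shRNAs were driven by H1 promoters while the CamkIIα promoter of the same virus drove only the fluorescent marker zsGreen. The control virus was given at a higher titre than the L-DL virus. The labels describe the control mice as wild type, although they too received virus, and name the other genotype a knockdown in one field and a null in another. Ages at tissue collection are not given here.

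These proteins sit in the plasma membrane and bind partners on the same or on neighbouring cells through immunoglobulin domains. L1 family proteins hold the ankyrin and spectrin skeleton at axons through their cytoplasmic tails, NCAM proteins guide neurite growth and carry polysialic acid, and CADM proteins (SynCAMs) join synaptic membranes and the axon to its glia. Much of their diversity comes from alternative splicing, including very short exons that are used mainly in neurons.

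Reads counted on genes numbered 16052529 to 17913064 per library. Hnrnpdl itself measured 176, 183 and 170 CPM (read counts scaled to a common library size by edgeR's TMM method) in controls and 217, 150 and 173 CPM in the libraries labelled L-DL KD. These values overlapped, with a log2 fold change of 0.03 (standard error 0.12, edgeR adjusted p = 0.898), and the count does not separate the long isoform. The second group is therefore called the libraries labelled L-DL KD. The 10 microglial genes of a marker list (among them Aif1, Cx3cr1 and P2ry12) were all higher, with a summed level of 2835 to 3650 CPM against 1350 to 1689 CPM in controls. Of 13 pan-neuronal genes, 9 were lower and 2 higher, with a summed level of 4441 to 5139 CPM against 6055 to 6393 CPM. The 6 interneuron genes summed to 213.5 to 382.4 CPM against 581.1 to 656.6 CPM, with 4 lower and none higher. The 8 oligodendrocyte genes summed to 6932 to 10220 CPM against 8162 to 8736 CPM, with 1 higher and 1 lower. Oligodendrocyte precursor and endothelial lists each had 4 of 5 genes higher, and 3 of 5 CA1 pyramidal genes were lower. Of the astrocyte list, 2 of 6 genes were lower and 1 higher (summed level 5617 to 6618 CPM against 7019 to 7142 CPM). Of the dentate granule list, 2 of 5 genes were lower and 1 higher (410.6 to 451.1 CPM against 368.7 to 401.5 CPM). The 4 choroid plexus genes summed to 28.8 to 5120 CPM against 429.4 to 4571 CPM. No gene of the microglial, pan-neuronal, interneuron and oligodendrocyte lists was at 0 in any library, and fewer cells of a type and less RNA per cell cannot be told apart in bulk tissue. Their part in the results on the adhesion genes was not tested.

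Much of the splicing described below concerns short coding exons, and their sequences are shown first so that their lengths and relatedness can be seen. They were read 5′ to 3′ from GENCODE M21 transcripts (genome build GRCm38), with the exon in capitals and 12 bases of each neighbouring exon in lower case. The first pair is the short exon next to the last coding exon of L1cam and Nrcam.
L1cam 12-base exon: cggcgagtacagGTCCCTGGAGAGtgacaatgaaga
Nrcam 12-base exon: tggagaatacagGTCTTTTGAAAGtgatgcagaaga
In L1cam this exon completes the tyrosine-based endocytosis signal of the cytoplasmic tail and is a neuronal exon. The 2 exons share 8 of 12 bases, and 25 of 36 bases with their flanks. The next 3 are short exons at the second position of the coding sequence, near the amino terminus, of L1cam, Nrcam and Nfasc.
L1cam 15-base exon: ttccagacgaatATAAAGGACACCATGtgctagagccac
Nrcam 18-base exon: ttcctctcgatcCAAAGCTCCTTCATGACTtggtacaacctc
Nfasc 18-base exon: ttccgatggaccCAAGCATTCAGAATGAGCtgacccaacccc
The Nrcam and Nfasc exons share 9 of 18 bases, and 25 of 42 with their flanks. The remaining exons lie further inside the coding sequence.
Nrcam 30-base exon: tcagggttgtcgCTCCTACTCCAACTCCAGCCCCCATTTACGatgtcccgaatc
Nrcam 36-base exon: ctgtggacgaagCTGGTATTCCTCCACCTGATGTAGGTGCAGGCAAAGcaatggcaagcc
Nfasc 45-base exon: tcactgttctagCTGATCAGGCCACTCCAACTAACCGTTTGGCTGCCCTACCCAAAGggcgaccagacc
Nfasc 51-base exon: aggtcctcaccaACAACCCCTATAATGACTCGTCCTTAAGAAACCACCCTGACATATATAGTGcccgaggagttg
Chl1 48-base exon: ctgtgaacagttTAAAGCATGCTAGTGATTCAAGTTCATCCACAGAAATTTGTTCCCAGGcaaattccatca
Cadm1 33-base exon: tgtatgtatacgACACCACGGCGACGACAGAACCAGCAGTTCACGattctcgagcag
Ncam1 30-base exon: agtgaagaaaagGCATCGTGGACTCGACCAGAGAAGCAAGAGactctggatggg
Of the 27 tested coding exons of the 10 genes, 26 had a length that was a multiple of 3, so that their use keeps the reading frame.

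Total expression differed first. Of the 10 genes, 6 were lower and 2 were higher in the libraries labelled L-DL KD at an adjusted p under 0.05 (edgeR's quasi-likelihood test, Benjamini-Hochberg adjustment over 17621 genes), where 15.0% of all genes tested were lower and 15.6% were higher. The lower genes were Cadm1 to Cadm4, L1cam and Chl1, and the higher genes were Ncam1 and Ncam2. Nrcam and Nfasc did not pass. CPM of the groups lay apart in 8 of the 10 genes, as in 47.2% of all genes tested. With libraries scaled to the summed counts of the pan-neuronal genes in place of TMM, the median log2 fold change of all genes moved from 0.01 to 0.37, and 2 of the 10 genes were called lower and 4 higher (all genes: 826 lower and 7119 higher, against 2636 and 2743). That scaling moves every gene by nearly the same amount, so values under it are read against its own median.

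Cadm2 (ENSMUSG00000064115, chr16:66655421-67620908), a synaptic and axonal CADM protein, had 176, 195 and 196 CPM in controls and 110, 102 and 96.4 CPM in the libraries labelled L-DL KD. Every control lay well above every library labelled L-DL KD, and the log2 fold change stood at -0.88 (standard error 0.08, adjusted p = 0.000266), the largest of the 10 genes. Cadm4 (ENSMUSG00000054793, chr7:24482023-24504539), which on glia receives the axonal CADM proteins, had 213, 209 and 181 CPM against 145, 128 and 105 CPM. The groups did not overlap, and the log2 fold change stood at -0.67 (standard error 0.12, adjusted p = 0.00477). Cadm3 (ENSMUSG00000005338, chr1:173333258-173367695), an axonal partner of Cadm4, had 339, 299 and 321 CPM against 249, 207 and 173 CPM. These too did not overlap, with a log2 fold change of -0.61 (standard error 0.13, adjusted p = 0.00885).

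Cadm1 (ENSMUSG00000032076, chr9:47530173-47857637), the founding synaptic member of the family, had 168, 157 and 164 CPM in controls against 124, 146 and 124 CPM in libraries labelled L-DL KD. The groups lay apart by a narrower margin, with a log2 fold change of -0.31 (standard error 0.08, adjusted p = 0.0221). The call did not hold without L-DL KD replicate 3 (adjusted p = 0.0558) or without control replicate 1, 2 or 3 (0.0799, 0.0524 and 0.0693). Summed over the 4 genes, CADM expression was 860.5 to 896.2 CPM in controls and 499.3 to 628.4 CPM in the libraries labelled L-DL KD, and all 4 genes were lower under TMM. Under pan-neuronal scaling Cadm1 was at 0.05 (adjusted p = 0.681) and Cadm3 at -0.25 (adjusted p = 0.0736), neither of them called. Cadm2 (-0.52, adjusted p = 0.00215) and Cadm4 (-0.32, adjusted p = 0.0341) were called lower under that scaling. All 4 values lay below its median over all genes, 0.37.

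Among the L1 genes, L1cam (ENSMUSG00000031391, chrX:73853778-73896105), which supports axon growth and bundling, had 90.3, 70.8 and 92.2 CPM in controls against 62.2, 56.7 and 48.6 CPM in libraries labelled L-DL KD. The groups did not overlap, with a log2 fold change of -0.60 (standard error 0.13, adjusted p = 0.00976), which under pan-neuronal scaling was -0.24 and no longer called (adjusted p = 0.111). Chl1 (ENSMUSG00000030077, chr6:103510586-103750211), the close homolog of L1, had 195, 180 and 196 CPM against 162, 165 and 164 CPM. The difference was small and the groups lay apart, with a log2 fold change of -0.22 (standard error 0.06, adjusted p = 0.0339). Under pan-neuronal scaling the Chl1 value was 0.15 (adjusted p = 0.197). Both L1cam and Chl1 lay below the median of all genes under that scaling, 0.37. The Chl1 call did not hold without L-DL KD replicate 2 or 3 (adjusted p = 0.0796 and 0.0615), or without control replicate 1 or 3 (0.114 and 0.11), or without the filter on low counts (0.0747).

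Nrcam (ENSMUSG00000020598, chr12:44328885-44601964), which gathers at nodes of Ranvier, had 319, 331 and 338 CPM against 357, 378 and 330 CPM. Nfasc (ENSMUSG00000026442, chr1:132564690-132741797), whose neuronal form organises the axon initial segment and whose glial form builds the paranodal junction, had 506, 463 and 508 CPM against 600, 538 and 417 CPM. Both genes overlapped between the groups, with log2 fold changes of 0.11 (adjusted p = 0.297) and 0.08 (adjusted p = 0.695), while pan-neuronal scaling gave 0.47 (adjusted p = 0.00157) and 0.43 (adjusted p = 0.00677), close to the shifted median of all genes. Without L-DL KD replicate 1 the Nfasc value was -0.04.

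Both NCAM genes were higher under TMM. Ncam1 (ENSMUSG00000039542, chr9:49502136-49798925), the main carrier of polysialic acid in brain, had 186, 184 and 181 CPM in controls against 237, 238 and 215 CPM in libraries labelled L-DL KD. The controls were nearly equal and all lay below the other group, with a log2 fold change of 0.33 (standard error 0.07, adjusted p = 0.00816). Ncam2 (ENSMUSG00000022762, chr16:81200697-81626828), known from olfactory axons, had 36.6, 33.5 and 40.8 CPM against 49.9, 52.6 and 40.9 CPM. The groups almost touched, with a log2 fold change of 0.37 (standard error 0.12, adjusted p = 0.0455). The Ncam2 call did not hold without L-DL KD replicate 1 or 2 (adjusted p = 0.0609 and 0.137) or without control replicate 1, 2 or 3 (0.128, 0.159 and 0.0548).

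Per kilobase of exon, Cadm4 had the highest level in the controls, at 93.0 ± 8.10 CPM per kilobase (SD, n = 3), and Ncam2 the lowest, at 3.27 ± 0.326 CPM per kilobase. Length was the union of all annotated exons of a gene, 2161 bases for Cadm4 and 7248 (Cadm3) to 14145 (Nfasc) for the others. The order between genes therefore depends on the annotation. Cadm3 (44.2 ± 2.76), Nfasc (34.8 ± 1.79), Nrcam (24.6 ± 0.756), Ncam1 (21.2 ± 0.325) and Cadm2 (19.3 ± 1.11) followed Cadm4 in CPM per kilobase. Cadm1 (15.6 ± 0.511) and Chl1 (15.5 ± 0.732) did not differ beyond their spread, and L1cam stood at 11.5 ± 1.61 CPM per kilobase.

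**Figure D1:**
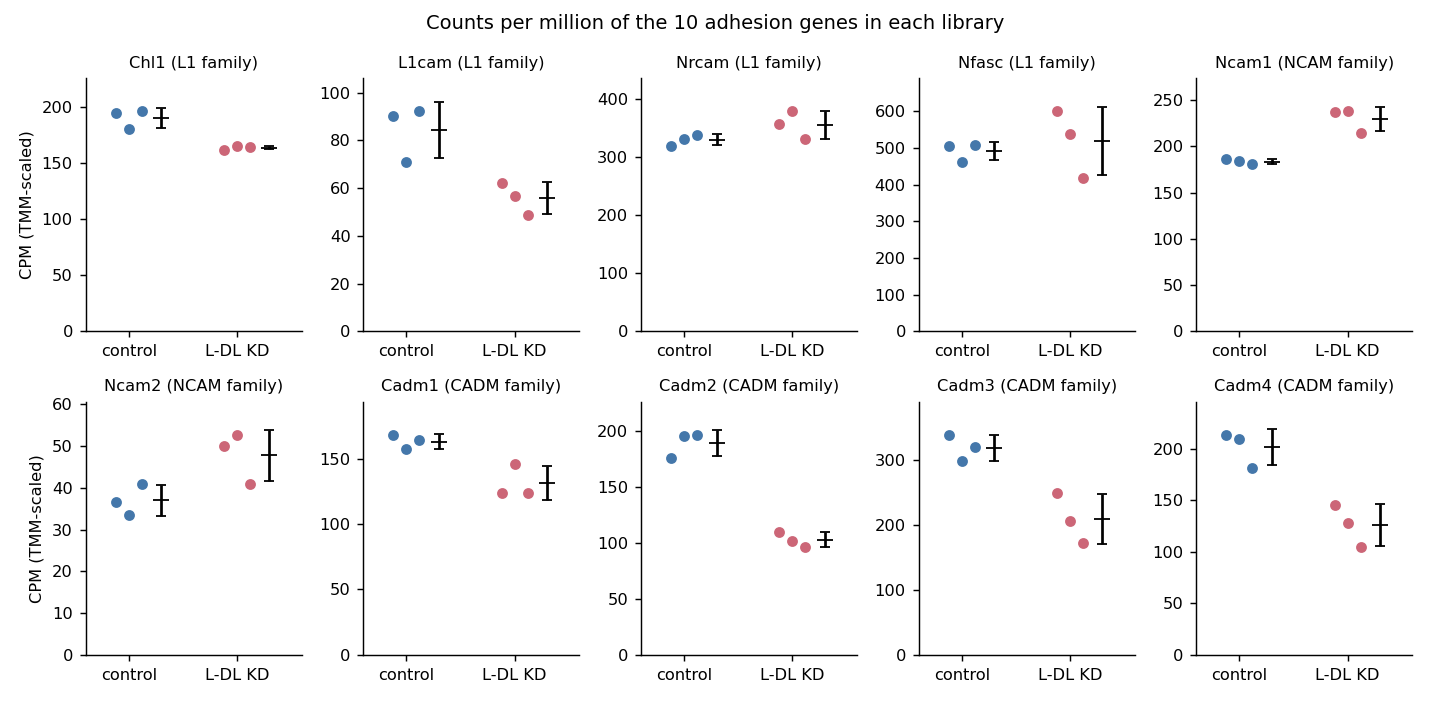
Expression of the 10 adhesion genes in CPM (vertical axes from 0, TMM-scaled) in the 3 control libraries (blue) and the 3 libraries labelled L-DL KD (red). Points are libraries and the black mark with bars is the mean ± SD; Cadm2 sits at 176 to 196 CPM in controls and at 96.4 to 110 CPM in the other group, while Nfasc overlaps.

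**Figure D2:**
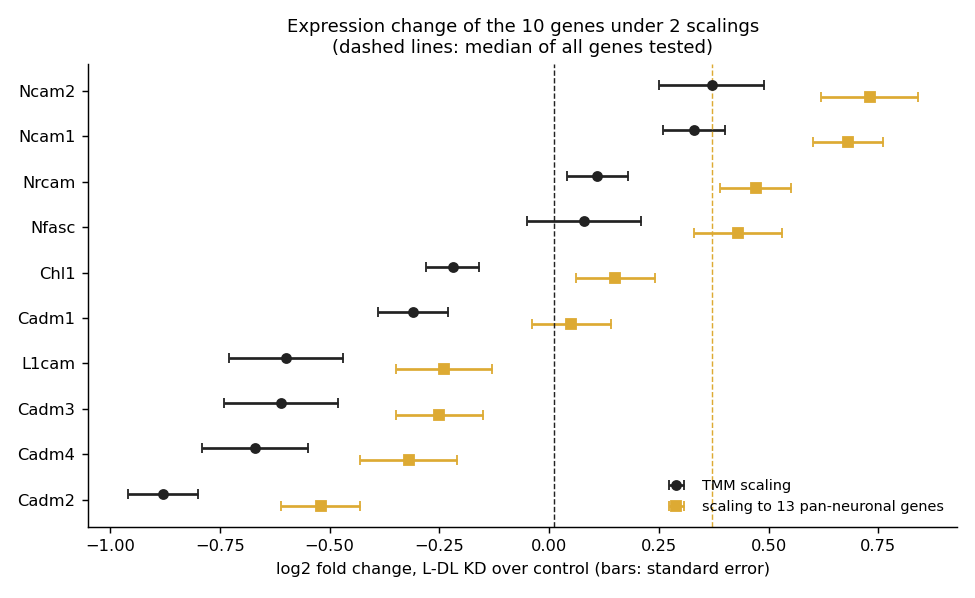
Log2 fold change of each gene with its standard error under TMM scaling (black circles) and under scaling to 13 pan-neuronal genes (yellow squares). Dashed lines mark the median of all genes tested, 0.01 and 0.37, and the second scaling moves all genes by nearly the same amount. Under it Cadm1 and Chl1 lie above 0 and below its median.

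Binding partners and relatives of these proteins moved in both directions. Of 26 genes for ligands, scaffolds, proteases and signalling partners, 8 were higher and 6 lower, with a median log2 fold change of -0.01 against 0.01 over all genes tested. Of 38 other immunoglobulin adhesion genes, 11 were higher and 10 lower, with a median of -0.07. Over all genes tested, 15.6% were higher and 15.0% lower. Cntnap1 (Caspr), the paranodal receptor that meets glial neurofascin, fell from 225 ± 5.97 to 90.8 ± 18.7 CPM (SD), with a log2 fold change of -1.31 (adjusted p = 0.000440). Epb41l3 (protein 4.1B), which ties Caspr and CADM proteins to the cytoskeleton, had a log2 fold change of -0.91 (adjusted p = 0.000647), and Ank3 (ankyrin-G), which anchors L1 proteins at the axon initial segment, one of -0.44 (adjusted p = 0.00499). Sema3a, a guidance ligand whose receptor complex includes L1cam, was higher (log2 fold change 0.91, adjusted p = 0.0132), as were the β1 integrin gene Itgb1 (0.86, adjusted p = 0.000209) and the scaffold gene Mpp3 (0.69, adjusted p = 0.000571). Among the relatives, the contactin genes Cntn4 (-1.69, adjusted p = 0.00171) and Cntn3 (-1.06, adjusted p = 0.00254) and Mdga1 (-1.66, adjusted p = 8.4e-05), which restrains neuroligins, had the largest falls in log2 fold change. Sdk1 (1.23, adjusted p = 0.00101), Nectin2 (0.96, adjusted p = 0.00705) and Cntn5 (0.95, adjusted p = 0.00929) had the largest rises.

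Splicing was measured from reads across exon junctions. The inclusion level (PSI, percent spliced in, given here from 0 to 1) is the length-corrected share of junction reads that include a segment. The splicing table listed 66 events for the 10 genes, of which 58 were skipped exons, in 58 distinct segments, and 38 segments, each counted by its best covered event, had enough reads for the test. No segment reached an adjusted p under 0.05 (edgeR fit of both junction forms, adjusted over 18829 events), where 0.27% of the 17769 tested segments of all genes did. No PSI difference below passed that test, and each is given as its values stand. At an unadjusted p under 0.05, called the looser threshold here, 16 of the 38 segments passed, 11 with lower and 5 with higher PSI, against 13.2% of all tested segments (8.27% lower and 4.92% higher). The PSI values of the groups did not overlap for 11 lower and 6 higher segments, against 10.8% and 7.65% of all tested segments. These genes were better covered than most, with a median of 200 counts per library and segment against 97.8. Among segments with a mean of at least 100 counts, 14 of 31 passed at an unadjusted p under 0.05, against 16.8% of all such segments. DESeq2 called 1 event of these genes at an adjusted p under 0.05, the Cadm1 exon described below, and limma on the log2 ratio called 0. Without the last listed library labelled L-DL KD, 10 segments passed in place of 16 (6 lower), and without the last listed control library 7 were lower in place of 11. The 20 untested segments were almost always included or had few reads.

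The L1 family held most of the differing segments, with 14 of its 24 tested segments at an unadjusted p under 0.05 (10 lower and 4 higher), while the NCAM and CADM families had 1 of 7 each. Of 16 tested skipped exons of up to 51 bases in the 10 genes, 8 passed at an unadjusted p under 0.05 (6 lower and 2 higher), all 8 of them among the 11 of the L1 family. Over all genes 26.4% of such short exons passed, 23.0% with lower and 3.43% with higher PSI. The limit of 51 bases was chosen with values known.

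**Figure D3:**
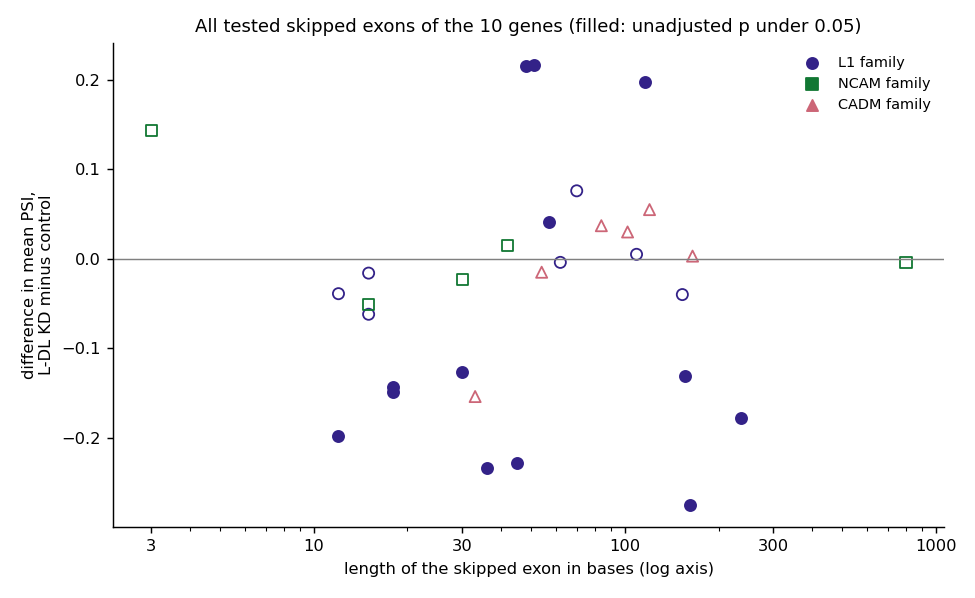
Difference in mean PSI (libraries labelled L-DL KD minus control, vertical axis) against exon length in bases (log axis) for the 31 tested skipped exons of the 10 genes, by family. Filled symbols have an unadjusted p under 0.05, and apart from 2 exons of 48 and 51 bases the filled short exons lie below 0.

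Nrcam held the most segments past the looser threshold, 7 of its 11 tested segments. The 12-base exon before its last exon (chr12:44597782-44597793, exon 4 of Nrcam-205), shown above, had a PSI of 0.312, 0.330 and 0.242 in controls and 0.160, 0.078 and 0.050 in the libraries labelled L-DL KD, in the order listed by the table. The groups lay apart, with 296 to 395 junction counts per library. The inclusion to skipping ratio had a log2 change of -2.01 (standard error 0.43, adjusted p = 0.0781), and without the first listed library labelled L-DL KD the adjusted p was 0.0262. Counting each segment by its best covered event, it was 1 of 38 with an unadjusted p under 0.001, against 0.996% of all tested segments, and a further event of Cadm1, given below, also lay under 0.001. The related 12-base exon of L1cam (chrX:73855652-73855663) stayed almost fully included, at 0.990, 0.977 and 0.981 against 0.960, 1.0 and 0.870. Its groups overlapped and it rested on 41 to 112 counts (adjusted p = 0.565).

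The 18-base exon of Nrcam (chr12:44535057-44535074) had a PSI of 0.585, 0.60 and 0.672 against 0.523, 0.465 and 0.442. Its counterpart in Nfasc (chr1:132637864-132637881), the second coding exon, had 0.355, 0.457 and 0.414 against 0.195, 0.281 and 0.301. Both exons were lower without overlap, with differences in mean PSI of -0.143 (adjusted p = 0.304) and -0.149 (adjusted p = 0.294). The 15-base exon of L1cam (chrX:73867022-73867036) had only 10 to 28 counts per library and a mean PSI of 0.931 ± 0.06 against 0.915 ± 0.147 (SD) and overlapping groups (adjusted p = 0.931).

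Inside Nrcam, the 36-base exon (chr12:44578145-44578180) had a PSI of 0.696, 0.636 and 0.726 in controls against 0.492, 0.503 and 0.360 in libraries labelled L-DL KD. The groups lay far apart (difference -0.234, adjusted p = 0.134). The 30-base exon (chr12:44566840-44566869) had 0.747, 0.743 and 0.761 against 0.657, 0.650 and 0.561. The controls were nearly equal and all above the other group (difference -0.127, adjusted p = 0.26). The 156-base exon in the 5′ untranslated part (chr12:44387900-44388055) had 0.839, 0.875 and 0.956 against 0.810, 0.699 and 0.768 (adjusted p = 0.238).

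The 153-base exon of Nrcam (chr12:44584835-44584987) gave different values with different upstream partners. Counted in its best covered event it had 0.263, 0.279 and 0.220 against 0.155, 0.268 and 0.219, which overlapped (adjusted p = 0.772). In its other event it had 0.464, 0.420 and 0.477 against 0.173, 0.325 and 0.138, which did not overlap (adjusted p = 0.142). The skipping reads of that other event are the same as those of the 36-base exon above, so these are not separate differences. That event and the 57-base exon of Nrcam (chr12:44545379-44545435) were chosen after their values were seen. The 57-base exon was the only tested skipped exon of Nrcam with a higher PSI at this threshold, at 0.941, 0.939 and 0.941 against 0.977, 0.982 and 0.983 (adjusted p = 0.204).

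In Nfasc, 5 of 7 tested segments passed the looser threshold, 3 with lower and 2 with higher PSI. The 45-base exon (chr1:132607003-132607047) had a PSI of 0.485, 0.516 and 0.539 in controls and 0.327, 0.190 and 0.340 in the libraries labelled L-DL KD (adjusted p = 0.158). The 237-base exon (chr1:132588074-132588310) had 0.567, 0.635 and 0.532 against 0.356, 0.505 and 0.337 (adjusted p = 0.312). Both were lower without overlap, as was the 18-base exon above.

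In contrast, the 116-base exon of Nfasc (chr1:132600099-132600214) had a PSI of 0.28, 0.309 and 0.294 in controls and 0.424, 0.525 and 0.528 in the libraries labelled L-DL KD (adjusted p = 0.171). The 51-base exon (chr1:132627872-132627922) had 0.246, 0.348 and 0.422 against 0.579, 0.541 and 0.547 (adjusted p = 0.231). Both were higher without overlap. In the annotation, the 3 exons that were lower (18, 45 and 237 bases) are all in the transcript Nfasc-202 and in neither Nfasc-201 nor Nfasc-203. The 2 exons that were higher (51 and 116 bases) are both in Nfasc-203 and not in Nfasc-202. The 15-base exon, which is in all 3 transcripts, overlapped between the groups at 0.542, 0.679 and 0.649 against 0.570, 0.557 and 0.556 (adjusted p = 0.777). The 116-base exon is the coding exon whose length is not a multiple of 3, and it is joined in Nfasc-201 to an exon of 205 bases that is also absent from Nfasc-202. The 2 lengths together are a multiple of 3. Reads joining the 116-base exon directly past the 205-base exon numbered 0, 0 and 0 in controls and 0, 2 and 0 in the other group. The PSI of the 116-base exon assumes that direct join, so it is understated if both exons are used together. Neurons make a neurofascin with a mucin-like domain and oligodendrocytes one that lacks it, and which annotated transcript stands for which form was not analysed here. The oligodendrocyte marker sum overlapped between the groups, while the pan-neuronal sum did not, and their part in these PSI values was not tested.

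In Chl1, the 162-base exon 24 (chr6:103714445-103714606) had a PSI of 0.767, 0.643 and 0.571 in controls and 0.371, 0.415 and 0.370 in the libraries labelled L-DL KD, over 126 to 220 counts. The lowest control lay above the highest of the other group (difference -0.275, log2 change of the ratio -1.66, standard error 0.42, adjusted p = 0.13). Counting each segment by its best covered event, this was the largest difference in mean PSI among the 38 tested segments, and 1 further event of Cadm1, given below, was larger. The 48-base exon of Chl1 (chr6:103666920-103666967) went the other way, at 0.348, 0.292 and 0.272 against 0.483, 0.448 and 0.624 (adjusted p = 0.35). It rested on 51 to 82 counts. The 70-base untranslated exon 2 of Chl1 overlapped between the groups (adjusted p = 0.585).

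**Figure D4:**
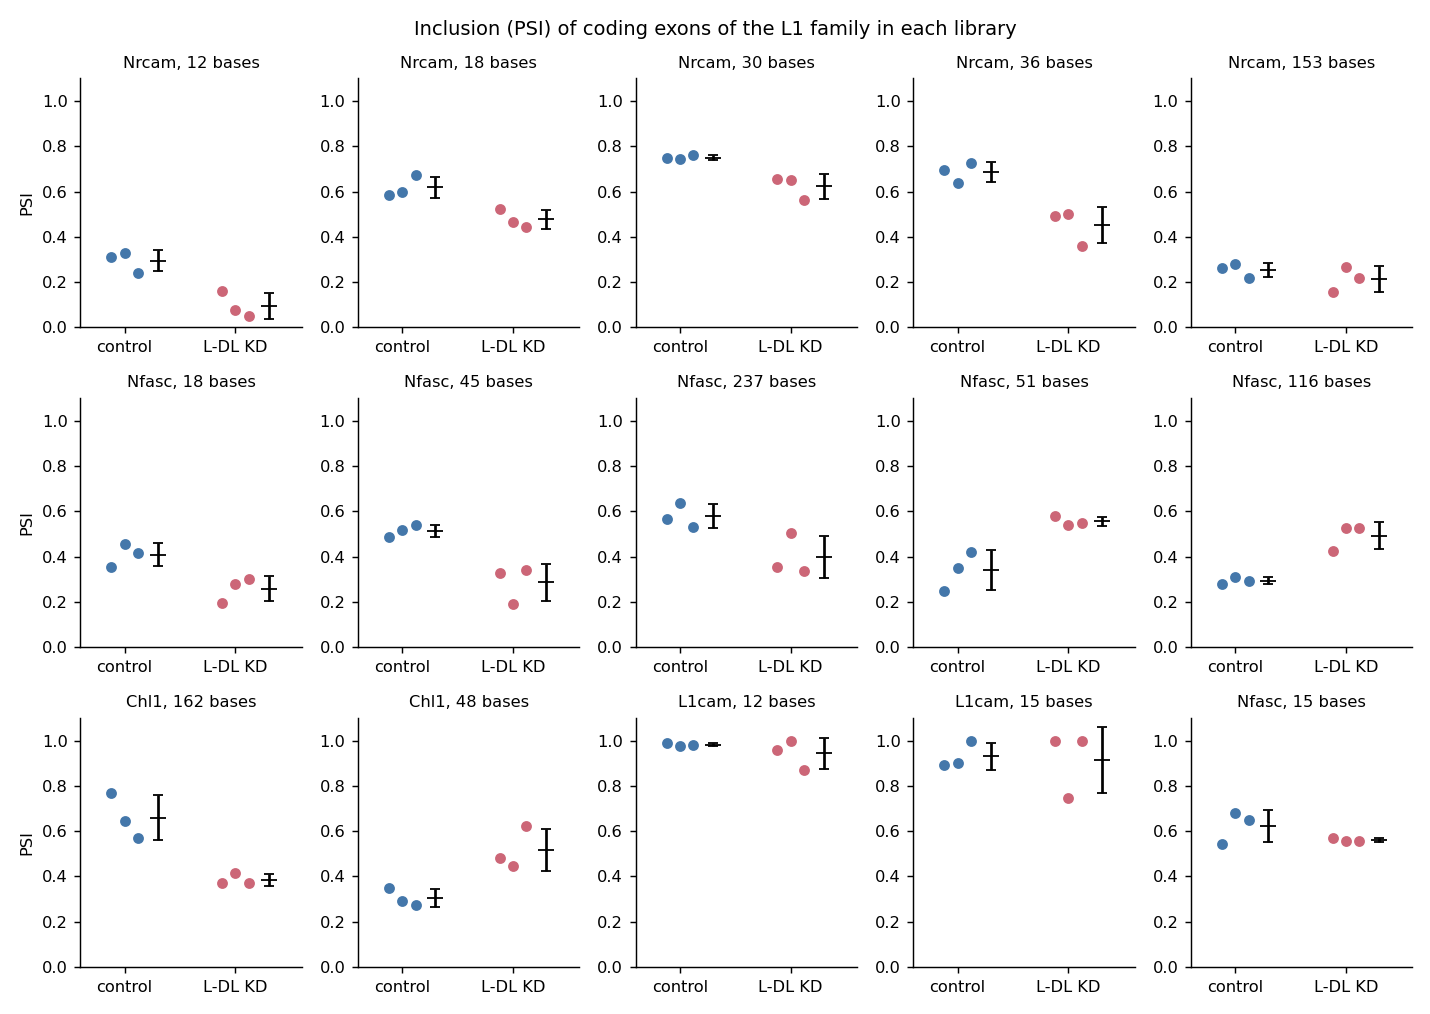
PSI (0 to 1) of 15 coding exons of the L1 family in the 3 control libraries (blue) and the 3 libraries labelled L-DL KD (red), with mean ± SD in black. Exons of 12, 18, 30 and 36 bases in Nrcam and of 18, 45 and 237 bases in Nfasc sit lower, those of 51 and 116 bases in Nfasc and 48 bases in Chl1 sit higher, and both L1cam exons overlap.

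Counting each segment by its best covered event, 1 CADM segment passed the looser threshold, the choice between a pair of Cadm1 exons, and a further event of the second of these exons passed as well. Its coding exons of 84 bases (chr9:47818734-47818817) and 33 bases (chr9:47829377-47829409) lie in the stalk region before the membrane, and either can be numbered exon 8, depending on the transcript. Counted as a choice between both, the 84-base exon took 0.682, 0.713 and 0.702 of the length-corrected reads in controls against 0.787, 0.844 and 0.895 in libraries labelled L-DL KD. The groups did not overlap (adjusted p = 0.226), and transcripts that hold both exons add reads to both forms. Counted alone, the 84-base exon had 0.705, 0.555 and 0.523 against 0.597, 0.619 and 0.680, which overlapped (adjusted p = 0.877). The 33-base exon joined to exon 7 had 0.527, 0.334 and 0.317 against 0.286, 0.231 and 0.200, lower without overlap (adjusted p = 0.395). The choice between both exons, the 84-base exon alone and the 33-base exon joined to exon 7 are ratios of shared reads. They are not separate results. Joined to the 84-base exon, in an event chosen after its values were seen, the 33-base exon had 0.720, 0.730 and 0.678 against 0.396, 0.420 and 0.251. There the difference in mean PSI was -0.354 and the log2 change of the ratio was -2.14 (standard error 0.47, adjusted p = 0.0834, unadjusted p under 0.001), and DESeq2 gave an adjusted p of 0.0237.

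The 54-base exon of Cadm1, the 120-base exon of Cadm2, the 102-base exon of Cadm3 and the 165-base exon of Cadm4 all overlapped between the groups. Mean PSI was 0.114 ± 0.0229 against 0.099 ± 0.0863 in Cadm1 (adjusted p = 0.899) and 0.15 ± 0.0691 against 0.205 ± 0.0363 in Cadm2 (adjusted p = 0.637). It was 0.053 ± 0.0122 against 0.083 ± 0.0448 in Cadm3 (adjusted p = 0.665). The Cadm4 exon was nearly always included, at 0.988 ± 0.00913 against 0.991 ± 0.00532 (adjusted p = 0.938), although its gene had the second largest fall in expression.

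Ncam1, higher in level, had 1 of 7 tested segments past the looser threshold. The 30-base exon (chr9:49550540-49550569), known as VASE, lies in an immunoglobulin domain and lessens the growth-promoting action of NCAM. It had a PSI of 0.497, 0.479 and 0.506 in controls and 0.449, 0.423 and 0.541 in the libraries labelled L-DL KD, over 200 to 392 counts. The groups overlapped (adjusted p = 0.911). The 801-base exon (chr9:49506853-49507653), which lengthens the cytoplasmic tail, had 0.269, 0.297 and 0.282 against 0.307, 0.271 and 0.258 (adjusted p = 0.983). The 15-base exon (chr9:49541888-49541902) had 0.147, 0.162 and 0.147 against 0.036, 0.154 and 0.114, where the first listed library stood below all others (adjusted p = 0.593). Counted against the 42-base exon, the same 15-base exon was lower without overlap at 1.0, 0.977 and 0.973 against 0.854, 0.972 and 0.741, over only 12 to 62 counts (adjusted p = 0.373). A 3-base exon (chr9:49531974-49531976) had 0.093, 0.099 and 0.110 against 0.664, 0.026 and 0.041, so that the first listed library stood far from the rest (6 to 38 counts, adjusted p = 0.982). A 3-base shift of a 3′ splice site also overlapped (adjusted p = 0.762). The 2 listed segments of Ncam2 had 0 to 2 skipping reads per library and were not tested.

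**Figure D5:**
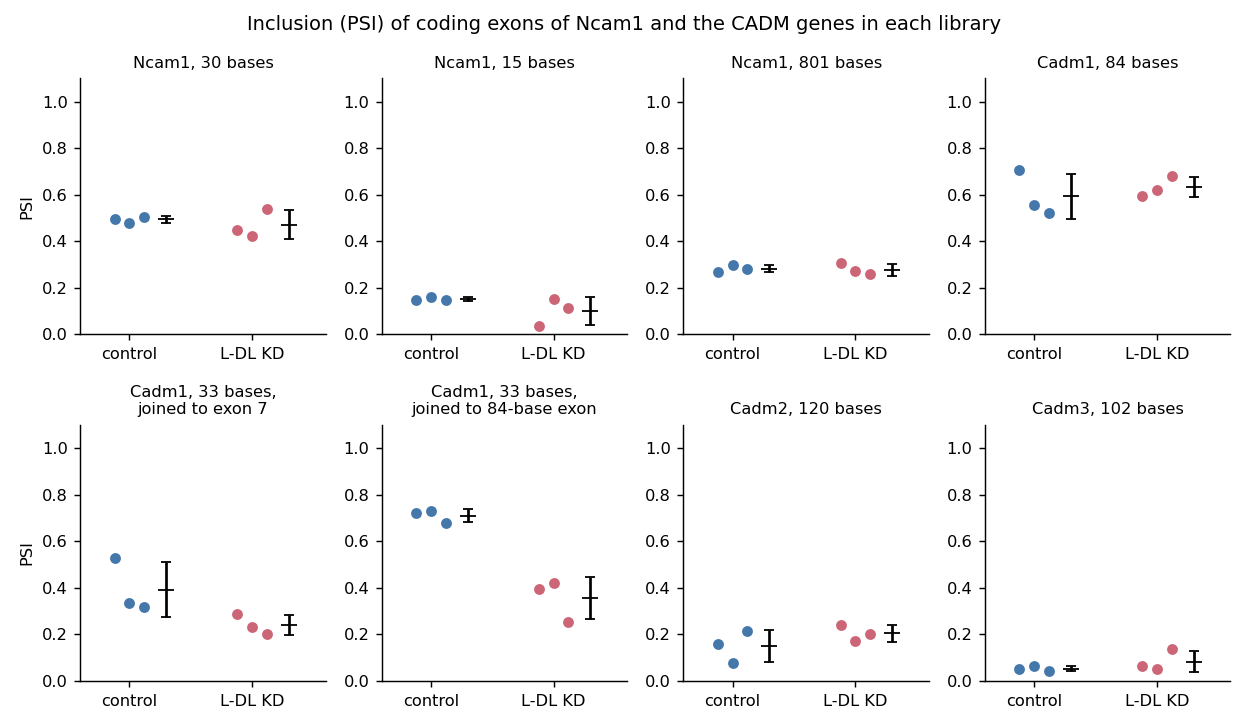
PSI (0 to 1) of 8 coding exon events of Ncam1, Cadm1, Cadm2 and Cadm3 in control libraries (blue) and libraries labelled L-DL KD (red), with mean ± SD in black. The groups separate in the 2 panels of the 33-base exon of Cadm1 and overlap in the others.

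The remaining tested segments were a mutually exclusive exon pair of L1cam (0.551 ± 0.0647 against 0.503 ± 0.141, adjusted p = 0.888) and 6 segments of Nrcam, Nfasc and Ncam1 outside the naming rule. Of these, a retained intron of Nrcam (0.041 ± 0.0295 against 0.011 ± 0.00931, adjusted p = 0.371) passed the looser threshold with overlapping groups. Nrcam and Nfasc had 12 of the 16 segments at an unadjusted p under 0.05 without an expression call, and Cadm2 had the largest expression difference with its 1 tested segment overlapping.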

How the data were processed

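Hippocampal RNA was compared between 3 control libraries and 3 libraries labelled L-DL KD; nothing in the labels ties equal replicate numbers. The authors enriched mRNA with oligo(dT), sequenced 150 nt read pairs and used GRCm38. They deposited raw read counts per Ensembl gene without normalization, and junction counts of each inclusion and skipping form with their effective lengths from rMATS (version 4.1.0). The submitters' processing notes name HISAT2 (2.1.0), HTSeq (0.6.1) and Bowtie (1.1.2), with no role. Whether counting used strand is not given in the sources used here, so overlapping genes share uncertainty. Columns of the authors' own comparisons (PSI difference, p-value and FDR) were not used. The splicing table does not number its libraries, and which group came first in it was taken from the paper's definition of the PSI difference and checked against gene counts.

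Gene counts were tested with edgeR (4.0.16; TMM; a minimum of 10 counts in 3 libraries or more), and junction counts with the same quasi-likelihood test on 12 columns (2 forms in 6 libraries) with an effect for each library, for events averaging 20 or more counts a library and 1 or more of each form. Events of the same segment were represented by the one with the highest mean count. Work was done in R (4.3.3) and Python (3.11.15), with DESeq2 (1.42.0) and limma (3.58.1) as alternatives. On simulated data the expression test called 85% of 200 genes changed 2-fold and the splicing test 50% of 200 events shifted by 1.5 on the logit scale. The simulated spread was fixed and equal in both groups, and no other features were changed. These shares are therefore not the power of the tests in these libraries. Depth was 16052529 to 17913064 gene counts per library, and p-values measure the spread between 3 samples a group, which the labels do not tie to separate animals.

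The 10 genes, the gene lists and the naming rule were chosen with earlier results of these data known. Named were all 10 genes, the 3 largest rises and falls among called genes of 2 lists, and, for each gene, the tested segments with a mean PSI from 0.05 to 0.95 (up to 6, by count), its segment with the smallest p, and the exons 24 of Chl1 and 8 of Cadm1.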

Additional observations from a re-analysis of the deposited data

How the results depend on the processing

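Gene values kept their direction and their call in the alternatives run, except as follows and as given with Cadm1, Cadm3, Chl1, L1cam, Nrcam, Nfasc and Ncam2. Scaling to pan-neuronal counts, which moved the median of all genes to 0.37, left 2 genes lower and 4 higher. Chl1 was then at 0.15 and Cadm1 at 0.05 (log2), both above 0 and below that median. Samples of the same replicate number had correlations of deviations of 0.0666, 0.179 and -0.163, against -0.258 to 0.189 for the other pairs. With 3 libraries a group this cannot decide whether the numbers mark pairs. A fit with a replicate block gave 5 genes lower and 1 higher, without Chl1 (adjusted p = 0.0698) and Ncam2 (0.0944). For splicing, no paired analysis was possible because the splicing table carries no replicate numbers. Leaving out each library in turn gave 4 to 6 genes lower and 1 to 2 higher, and 10 to 18 segments at an unadjusted p under 0.05 (6 to 12 lower, 4 to 6 higher), with 0 to 1 at an adjusted p under 0.05. limma on the log2 ratio gave 10 such segments, 5 of them lower. The values that changed sign on leaving out a library were Nfasc expression (-0.04 to 0.21) and the log2 inclusion ratios of the Ncam1 exons of 3 (-1.62 to 1.24), 30 (-0.34 to 0.00) and 801 bases (-0.13 to 0.04), the Cadm1 exons of 54 (-1.47 to 0.39) and 84 bases (-0.00 to 0.55), the Cadm4 exon (-0.52 to 0.79) and the L1cam pair (-0.53 to 0.19), none of them called. The causes of these changes were not tested. Over all events edgeR made 48 calls at an adjusted p under 0.05, DESeq2 126, and limma 0 with 2377 at an unadjusted p under 0.05, while leaving out a library gave 0 to 52 by edgeR.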
